A study of Mus musculus with 7 samples.

Results

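The genes described here break down haem or carry it across membranes. They were chosen by name: haem oxygenase 2, the biliverdin reductases and haem carriers, 7 symbols in all, looked up in the name column of the comparison table deposited by the authors. Of the 7 symbols, 5 were found there (Blvrb, Blvra, Hmox2, Abcg2 and Slc48a1) and are the members, out of 15548 genes in that table and 38924 in the count files. Flvcr1 and Flvcr2 are in that table under the older names Mfsd7b and Mfsd7c. They were matched by gene identifier and are described beside the members but not counted among them. The measured condition on a member was its presence in the table, whose lowest mean normalized count over all samples was 12.7. In the authors' deposited table that mean was 1322 for Blvra, the least abundant member, and 724 and 141 for Mfsd7b and Mfsd7c, so the names and not their level kept those 2 out.

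The samples were fetal livers at 12.5 days post coitum from Pcbp2 knockout embryos, in 3 libraries with the replicate numbers 3 to 5 (KO3, KO4 and KO5), and from wild type embryos, in 4 libraries (WT1 to WT4). The construction of the knockout allele, the strain, the sex, the litter and any pooling of livers were not given in the sources used here. Nothing in the labels says that libraries came from separate animals, so a p-value sets the difference against a spread that may be technical. Messenger RNA reads assigned to genes numbered between 31898339 and 42378821 per knockout library and between 32240949 and 44544889 per wild type library. Pcbp2, the targeted gene, had 2.24, 1.39 and 2.22 CPM (reads relative to library size, scaled by TMM) in KO3, KO4 and KO5, against 165, 329, 347 and 338 CPM in WT1, WT2, WT3 and WT4. Every knockout library was thus far below every wild type library in Pcbp2, although WT1 stood below the other wild type libraries.

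Haem is opened by haem oxygenases into biliverdin, iron and carbon monoxide, and biliverdin reductases turn biliverdin into bilirubin. At this stage the liver is the main site of red cell production, so it holds erythroid cells that make haem in bulk and macrophages that take up expelled nuclei and spent red cells. Haem that is not used or degraded in a cell is moved by carriers in the plasma membrane and in the membrane of lysosomes.

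Of the biliverdin reductase genes, Blvrb fell in knockout livers and Blvra did not pass the test. Blvrb, the reductase that is abundant in fetal liver and red cells and also reduces flavins, fell 2.78-fold (log2 fold change -1.48 ± 0.14 SE, edgeR quasi-likelihood test adjusted over all genes, adjusted p = 0.00133). It had 118, 116 and 107 CPM in KO3, KO4 and KO5, against 304, 251, 329 and 378 CPM in WT1, WT2, WT3 and WT4. The highest knockout library was below the lowest wild type library, and the knockout libraries lay close together, with an SD of 5.97 CPM in knockout and 53.1 CPM in wild type. Blvrb had the 6th smallest p of the 16226 genes tested. The direction and call held with each library left out in turn, where the log2 fold change ran between -1.58 and -1.38. Blvrb (ENSMUSG00000040466.9) lies on chromosome 7 from 27447978 to 27466144 on the plus strand of mm10.

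The window around the first of 2 starts of Blvrb is shown because this gene had the largest difference among the members, and the last of 3 windows of Hmox2, the member with the smallest difference, is set beside it. Both come from RefSeq on GRCm38.p6 and hold 250 bases before the start and 50 from the start on. Capitals mark CCNCNCCC, the CACC box that erythroid and other Krüppel-like factors recognise, on either strand and with overlapping matches joined.
Blvrb, chr7:27447728-27448027, plus strand: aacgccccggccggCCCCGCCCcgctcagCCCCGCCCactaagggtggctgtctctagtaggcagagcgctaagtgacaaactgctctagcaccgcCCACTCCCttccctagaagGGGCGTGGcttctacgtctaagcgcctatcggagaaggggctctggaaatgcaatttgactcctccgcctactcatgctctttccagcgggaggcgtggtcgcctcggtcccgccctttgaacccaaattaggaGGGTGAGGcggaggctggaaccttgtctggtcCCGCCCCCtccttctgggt
Hmox2, chr16:4756696-4756995, plus strand: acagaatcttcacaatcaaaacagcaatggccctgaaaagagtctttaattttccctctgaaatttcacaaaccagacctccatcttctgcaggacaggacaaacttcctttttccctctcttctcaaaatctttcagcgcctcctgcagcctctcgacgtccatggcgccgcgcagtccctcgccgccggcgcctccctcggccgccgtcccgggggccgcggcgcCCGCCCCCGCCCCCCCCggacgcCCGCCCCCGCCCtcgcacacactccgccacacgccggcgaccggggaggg
These windows, each the one of its gene with the most matches, held 6 matches each. The other Blvrb window held 0 and the other Hmox2 windows held 0 and 1. The Hmox2 window with 1 match overlaps the shown one, and its match is also marked in the shown window. Hmox2 is annotated from 4726361, before the earliest of its 3 window starts at 4741613, so no window covers that end. Of 32544 promoter windows of the same length, 49.7% held at least 1 match. No window of the 6 listed genes with an entry, 11 windows in all, held AGATAA, the GATA motif, which 11.2% of all windows held on either strand. Slc48a1 had no entry, so its promoter was not read. TGACNNNGC, the antioxidant element, was found once each in the windows of Blvra and Flvcr1 and in 12.4% of all windows. A match or its absence describes these letters in these windows and was not tested against the values.

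Blvra, the other reductase and the main one for the adult form of biliverdin, had 30.7, 32 and 32 CPM in KO3, KO4 and KO5, against 42.5, 32.7, 37.1 and 41.6 CPM in WT1, WT2, WT3 and WT4. All knockout libraries were below all wild type libraries, with WT2 close to them. The log2 fold change was -0.28 ± 0.11 (95% interval -0.53 to -0.03), which did not pass over all genes (edgeR adjusted p = 0.175). A difference in scaling between libraries cancels in the ratio of 2 genes within a library. There were 3.83, 3.62 and 3.33 Blvrb reads for each Blvra read in KO3, KO4 and KO5, against 7.15, 7.66, 8.87 and 9.10 in WT1, WT2, WT3 and WT4. The ratio averaged 3.59 ± 0.252 in knockout (SD, n = 3) and 8.19 ± 0.941 in wild type (SD, n = 4), with no overlap. The ratio is given as a description of a chosen pair, with no test, and the share of other gene pairs without overlap was not counted. Blvrb alone did not overlap between groups either. Blvra (ENSMUSG00000001999.9) lies on chromosome 2 from 127070665 to 127097084.

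**Figure D1:**
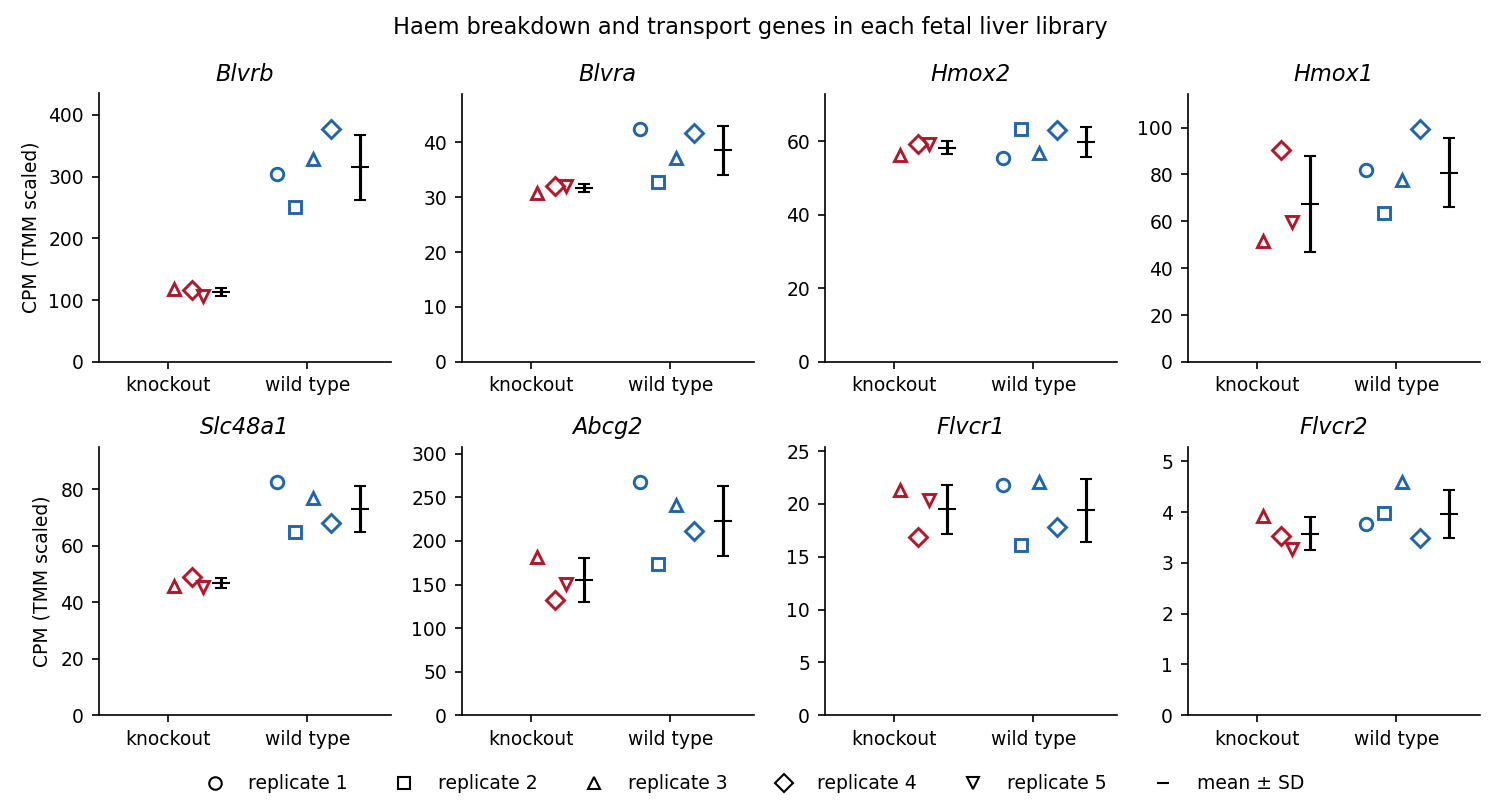
CPM of the 5 members, of Flvcr1 and Flvcr2 and of Hmox1 in each library, on axes that start at 0, with knockout libraries in red to the left and wild type libraries in blue to the right, a symbol for each replicate number, and bars for the mean ± SD. The knockout values of Blvrb, between 107 and 118 CPM, sit below all wild type values, which begin at 251 CPM, while the groups of Hmox2 and Flvcr1 overlap.

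The haem oxygenase genes showed no difference past the threshold. Hmox2, the constitutive enzyme, had 56.2, 59.3 and 59.1 CPM in KO3, KO4 and KO5, against 55.5, 63.4, 56.8 and 62.9 CPM in WT1, WT2, WT3 and WT4. The knockout values lay inside the wild type range. Its log2 fold change of -0.04 ± 0.09 had a 95% interval of -0.24 to 0.17 (edgeR adjusted p = 0.857), so that these data allow a level in knockout between 0.849 and 1.12 times that in wild type. Hmox2 (ENSMUSG00000004070.9, chromosome 16 from 4726361 to 4766742) shares exon sequence with Cdip1 on the opposite strand, and no source used here says whether reads were counted by strand. Hmox1, the inducible oxygenase and no member, had 51.4, 90.4 and 59.9 CPM in KO3, KO4 and KO5, against 82.0, 63.7, 77.6 and 99.6 CPM in WT1, WT2, WT3 and WT4. The groups overlapped, with KO4 and WT4 the highest library of each, and the log2 fold change was -0.26 ± 0.20 (95% interval -0.70 to 0.18, edgeR adjusted p = 0.480). Without KO4 it was -0.54, and it did not pass there either (edgeR adjusted p = 0.134).

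Among the carriers, Slc48a1 was lower in knockout livers. It encodes HRG1, which moves haem out of lysosomes into the cytosol and is known for its work in macrophages that digest red cells. It had 45.9, 48.9 and 45.5 CPM in KO3, KO4 and KO5, against 82.7, 65.0, 77.0 and 68.1 CPM in WT1, WT2, WT3 and WT4. The groups did not overlap. The gene fell 1.56-fold (log2 fold change -0.65 ± 0.11, edgeR adjusted p = 0.0103), a call that ended without KO5 (edgeR adjusted p = 0.0705, log2 fold change -0.62). Slc48a1 (ENSMUSG00000081534.2) lies on chromosome 15 from 97778520 to 97792692, which is 4.68 megabases before Pcbp2 on the same chromosome. Its exons overlap those of Hdac7, a histone deacetylase gene on the opposite strand, which averaged 57.2 ± 4.95 CPM in knockout and 41.1 ± 5.97 CPM in wild type (log2 fold change 0.47 ± 0.13, edgeR adjusted p = 0.0625). Reads from the shared part cannot be told apart if strand was not used in counting.

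Abcg2, an exporter of porphyrins, haem and many drugs at the plasma membrane of stem and erythroid cells, was near the threshold. It had 182, 132 and 151 CPM in KO3, KO4 and KO5, against 268, 174, 241 and 211 CPM in WT1, WT2, WT3 and WT4. KO3 lay above WT2, so the groups overlapped at 1 library each. The log2 fold change was -0.53 ± 0.16 (95% interval -0.88 to -0.18, edgeR adjusted p = 0.0848). It passed with edgeR when WT2 was left out (adjusted p = 0.0256) or low counts were kept (0.0425), and with DESeq2 (0.0205). In the authors' deposited table Abcg2 had a log2 fold change of -0.52 ± 0.17 and an adjusted p of 0.0212. Abcg2 (ENSMUSG00000029802.7) lies on chromosome 6 from 58584523 to 58695676 and has 3 annotated starts in RefSeq.

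The FLVCR genes did not pass. Flvcr1 encodes a haem exporter that red cell precursors need in mice, and both FLVCR proteins are also known as choline carriers. Flvcr1 had 21.3, 16.9 and 20.4 CPM in KO3, KO4 and KO5, against 21.8, 16.1, 22.1 and 17.8 CPM in WT1, WT2, WT3 and WT4. The knockout values lay inside the wild type range, and the log2 fold change was 0.01 ± 0.14 (95% interval -0.32 to 0.33, edgeR adjusted p = 0.985), so that a level in knockout between 0.804 and 1.26 times that in wild type is allowed. Its sign changed between settings. Flvcr2, the relative of Flvcr1, had 130, 160 and 115 reads in KO3, KO4 and KO5, or 3.93, 3.53 and 3.28 CPM. In WT1, WT2, WT3 and WT4 it had 111, 163, 168 and 152 reads, or 3.76, 3.98, 4.60 and 3.50 CPM. These groups overlapped too (log2 fold change -0.14 ± 0.18, edgeR adjusted p = 0.687). There were 8.54, 7.82 and 7.4 Abcg2 reads for each Flvcr1 read in KO3, KO4 and KO5, against 12.3, 10.8, 10.9 and 11.8 in WT1, WT2, WT3 and WT4. This ratio did not overlap between groups, although the CPM of Abcg2 did. It is a description of a chosen pair, with no test, and the share of other gene pairs without overlap was not counted.

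Of the 5 members, all of which passed the filter on low counts, 2 were called lower and 0 higher with edgeR. Among all 16226 genes tested 3.43% were called lower and 1.59% higher, or 5.02% in either direction. At an unadjusted p under 0.05 with edgeR 4 of the 5 were lower and 0 higher, against 11.8% of all genes that were lower and 9.98% that were higher at that threshold. Limma-voom called 2 lower and 0 higher, against 3.2% of all genes called lower. DESeq2 called 3 lower and 0 higher, against 6.51% of all genes called lower with DESeq2. The groups did not overlap for 3 of the 5 members (Blvrb, Blvra and Slc48a1), each lower in knockout, against 10.8% of all genes tested that were lower without overlap, 9.83% that were higher and 20.6% in either direction. By the authors' deposited table, the members with an adjusted p under 0.05 were 3 of the 5, each lower, against 6.86% of its genes called lower and 10.9% in either direction. The median log2 fold change was -0.53 over the members and 0.01 over all genes tested. Since the members were chosen with earlier results of these data known, these counts are a description. The count of members called lower was 1 without KO5. The count of all genes called lower was 556. It moved to 363 when WT1 was left out, 286 when WT3 was, 324 when WT4 was, 242 when KO4 was and 116 when KO5 was. The count of all genes called higher was 258. It moved to 418 when WT2 was left out, 148 when WT1 was, 79 when WT3 was, 93 when WT4 was, 107 when KO4 was and 24 when KO5 was. With total-count in place of TMM scaling 393 genes were called lower and 651 higher, and the members called lower were still Blvrb and Slc48a1.

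**Figure D2:**
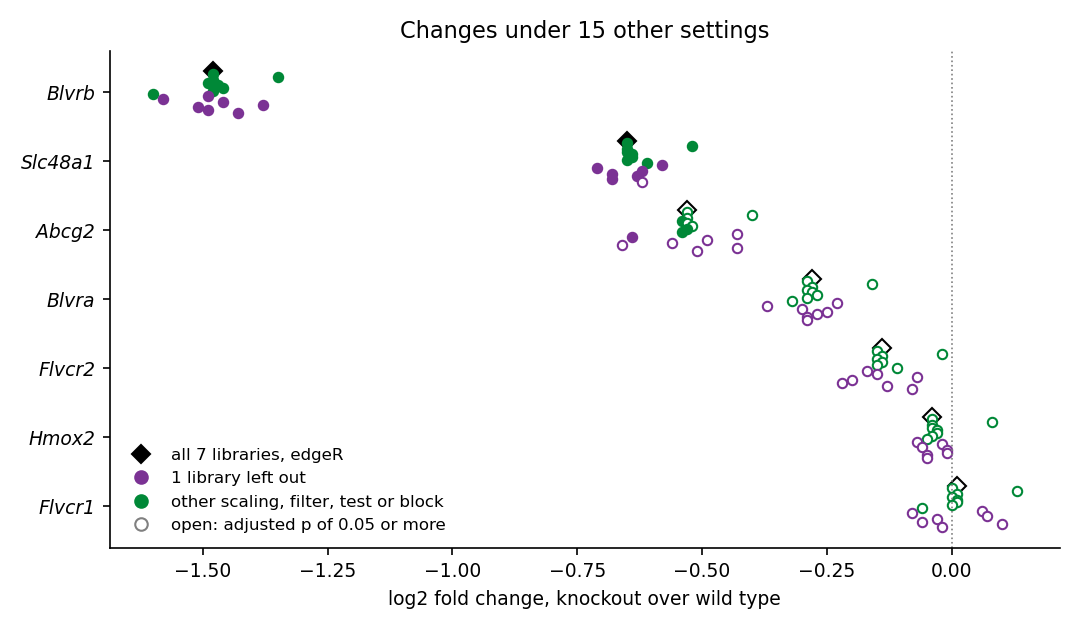
Log2 fold change, knockout over wild type, of the 5 members and of Flvcr1 and Flvcr2 (x axis) in the fit of all 7 libraries (black diamonds), with 1 library left out (purple) and under another scaling, filter, test or block (green), filled where the adjusted p was under 0.05. Blvrb stayed between -1.60 and -1.35 and filled throughout, and Slc48a1 between -0.71 and -0.52, while Hmox2 and Flvcr1 lay around 0; Flvcr2 has no value under the stricter filter.

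Levels can be set side by side when divided by length. Per kilobase of annotated exon, Blvrb had the highest level in both groups, 40.7 ± 2.15 RPKM in knockout (SD, n = 3) and 113 ± 19.1 RPKM in wild type (SD, n = 4). In wild type, Abcg2, Hmox2 and Slc48a1 followed with means of 27.4, 26.9 and 26.6 RPKM and overlapping ranges, and Blvra had 15.7 RPKM. In knockout, Hmox2 had 26.3 ± 0.792 RPKM and stood above every library of Abcg2 (16.2 to 22.3 RPKM), Slc48a1 (16.5 to 17.8 RPKM) and Blvra (12.6 to 13.1 RPKM). Flvcr1 was lower, with 3.77 RPKM in knockout and 3.75 RPKM in wild type, and Flvcr2 lowest, with 1.02 RPKM in knockout and 1.13 RPKM in wild type. The order of the middle genes depended on the length used. With the length of the longest protein-coding transcript in place of all exons, Blvra came out at 27.2 RPKM in knockout and 33.2 RPKM in wild type and overlapped Abcg2, at 27.1 RPKM in knockout and 39.1 RPKM in wild type, in both groups. Blvrb remained the highest and the FLVCR genes the lowest with both lengths.

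Within groups, the libraries differed from each other in part alike for several genes. In wild type, WT2 had the lowest CPM of Blvrb, Blvra, Abcg2, Slc48a1 and Flvcr1, and WT1 had the highest of Blvra, Abcg2 and Slc48a1. In knockout, the lowest library was KO5 for Blvrb and Slc48a1, KO3 for Blvra and KO4 for Abcg2 and Flvcr1. The coefficient of variation in knockout was 5.27% for Blvrb, 2.32% for Blvra and 4.01% for Slc48a1, against 16.9%, 11.8% and 11.1% for the same genes in wild type. In knockout and wild type it was 3.02% and 6.83% for Hmox2 and 16.2% and 18.2% for Abcg2. Flvcr1 had 11.8% and 15.2%, and Flvcr2 9.18% and 11.9%. For Hmox1 it was larger in knockout, at 30.5% against 18.3% in wild type.

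Some sums of cell type markers were lower in knockout too, those of the erythroid, macrophage and megakaryocyte lists. The sums of the other lists overlapped between groups or, for endothelial markers, were higher in knockout. The summed level of 12 erythroid markers was between 1882 and 3112 CPM in knockout libraries and between 3643 and 7450 CPM in wild type libraries, lowest in WT2 and highest in WT1 among the wild type libraries. With edgeR 6 of the 12 erythroid markers fell, where 3.43% of all genes tested were called lower and 1.59% higher. The 12 macrophage markers summed to between 176 and 220 CPM in knockout and between 268 and 309 CPM in wild type, and 7 of the 11 tested fell. The sums of 10 megakaryocyte markers were 230 to 238 CPM in knockout and 377 to 503 CPM in wild type, and 8 fell. Hepatoblast markers overlapped between groups, at 7579 to 9602 CPM in knockout and 6099 to 12727 CPM in wild type, and 1 of 12 fell. Endothelial markers summed to 395 to 490 CPM in knockout and 291 to 391 CPM in wild type, with 3 of 12 higher. Stellate and mesenchymal markers summed to 2681 to 3179 CPM in knockout and 2780 to 4272 CPM in wild type, with 1 of 10 lower. Heart muscle markers ran from 85.0 to 407 CPM in knockout, highest in KO3, and from 76.2 to 142 CPM in wild type, with 3 of 10 higher. No list held a gene at 0 reads in all libraries. The part of cell composition in the members' differences was not tested, and in bulk tissue fewer cells of a type and less RNA per cell cannot be told apart.

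Set against the erythroid markers, some of the listed genes overlapped between groups and others did not. The erythroid sums, the divisor here, were lower in every knockout library than in any wild type library. A gene of similar CPM in both groups, such as Hmox2 or Flvcr1, therefore comes out higher in knockout on this scale. Blvrb had between 37.8 and 61.5 CPM per 1000 CPM of erythroid markers in knockout and between 40.8 and 79.6 in wild type, so that the groups overlapped on this scale. Slc48a1 also overlapped, at 14.8 to 26.0 in knockout and 11.1 to 17.8 in wild type. Abcg2 was higher in every knockout library on this scale, at 58.4 to 70.3 in knockout against 36.0 to 47.7 in wild type. Hmox2 (18.1 to 31.5 in knockout, 7.45 to 17.4 in wild type), Blvra (9.87 to 17 in knockout, 5.68 to 8.98 in wild type) and Flvcr1 (6.84 to 8.98 in knockout, 2.92 to 4.41 in wild type) were likewise separated. Per 1000 CPM of macrophage markers, Slc48a1 had between 209 and 258 CPM in knockout and between 210 and 288 CPM in wild type. These ratios depend on the marker list and carry no test. Within wild type the erythroid sum ran from 3643 CPM in WT2 to 7450 CPM in WT1, which widens the range of such ratios. Blvrb was highest in WT4, at 378 CPM with a sum of 4754 CPM, and had 304 CPM in WT1. Whether the overlap of Blvrb comes from this spread was not tested, and Blvrb was not set against the megakaryocyte sum.

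**Figure D3:**
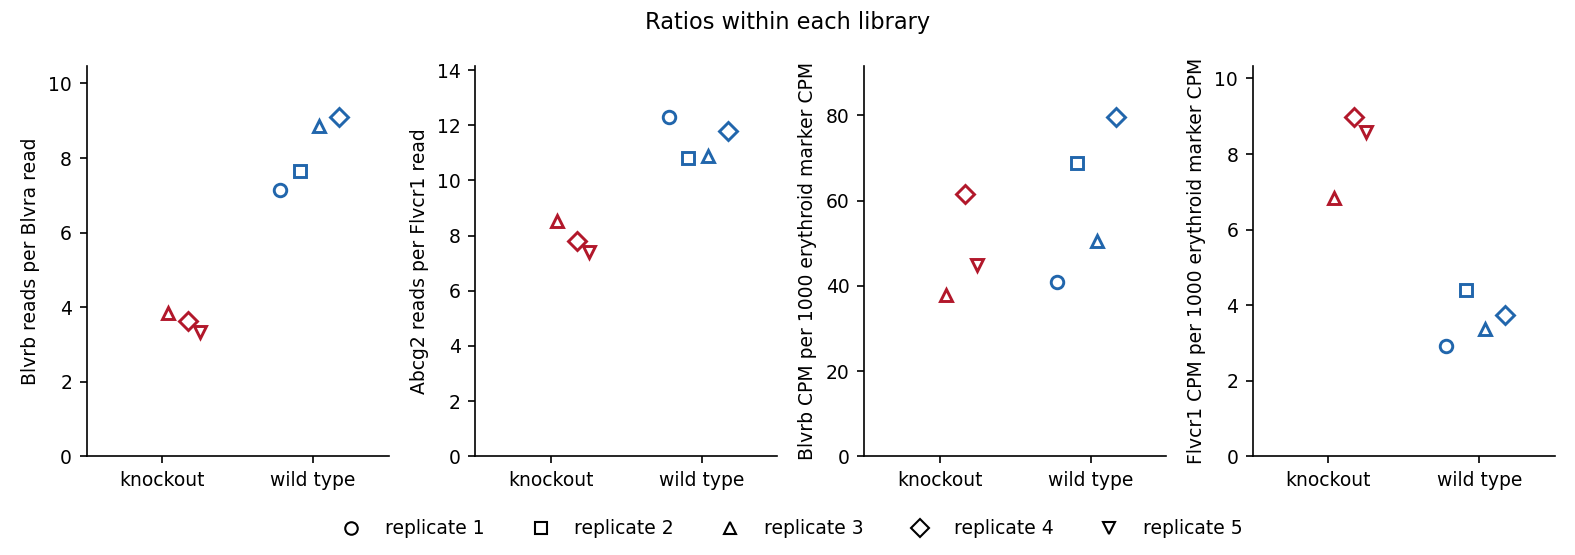
Ratios within each library, on axes that start at 0, with knockout libraries in red to the left and wild type libraries in blue to the right: reads of Blvrb per read of Blvra, reads of Abcg2 per read of Flvcr1, and CPM of Blvrb and of Flvcr1 per 1000 CPM of 12 summed erythroid markers. The first pair of panels and the last panel show no overlap between groups, while Blvrb overlaps when set against erythroid markers. The erythroid sums are lower in every knockout library, which raises this ratio for a gene of similar CPM in both groups, such as Flvcr1. Within wild type the sums ran from 3643 to 7450 CPM, which widens the range of the ratio.

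Other haem handling genes were read from lists. In the list of other haem and porphyrin carriers 3 of 18 fell and 1 rose with edgeR, with a median log2 fold change of -0.10. Among all genes tested 3.43% were called lower and 1.59% higher. Tspo, a mitochondrial outer membrane protein that binds porphyrins, averaged 28.4 ± 5.54 CPM in knockout and 61.4 ± 8.02 CPM in wild type (log2 fold change -1.11 ± 0.15, edgeR adjusted p = 0.00564). Hebp1, a cytosolic haem-binding protein, averaged 103 ± 8.51 CPM in knockout and 195 ± 31.2 CPM in wild type (log2 fold change -0.91 ± 0.14, edgeR adjusted p = 0.00673, but 0.0517 without KO5). Tmem14c, which brings protoporphyrinogen into mitochondria, averaged 233 ± 5.28 CPM in knockout and 350 ± 56.5 CPM in wild type (edgeR adjusted p = 0.0355). It lost the call when any 1 of WT1, WT3, WT4, KO3, KO4 and KO5 was left out (edgeR adjusted p from 0.0631 to 0.154). Abcc5, known from worms as a haem exporter, was the gene that rose, to 75.0 ± 3.28 CPM in knockout, against 56.3 ± 1.95 CPM in wild type (log2 fold change 0.41 ± 0.08, edgeR adjusted p = 0.0230). It lost that call when WT3 (0.0673), WT4 (0.0674), KO4 (0.0712) or KO5 (0.134) was left out. The carrier count of lower genes was 6 without WT2 and 1 without KO5, and it was 2 without WT1, WT3, WT4 or KO4.

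In the list of the other oxygenase and bilirubin handling genes 0 of 6 tested genes passed with edgeR in either direction, 1 was lower at an unadjusted p under 0.05, and limma-voom called 0 and DESeq2 1. Over all genes tested, 3.43% were called lower with edgeR, 3.2% with limma-voom and 6.51% with DESeq2. At an unadjusted p under 0.05 with edgeR, 11.8% of all genes were lower. The gene DESeq2 called was Abcc3, an exporter of conjugated bilirubin, at 3.21 ± 0.396 CPM in knockout and 4.77 ± 0.503 CPM in wild type (edgeR adjusted p = 0.0991, DESeq2 adjusted p = 0.0380). Abcc2, the canalicular exporter of conjugated bilirubin, averaged 16.0 ± 1.70 CPM in knockout and 20.2 ± 6.18 CPM in wild type (edgeR adjusted p = 0.371), and Gsta4, a glutathione transferase, 29.4 ± 5.44 CPM in knockout and 31.3 ± 5.24 CPM in wild type (edgeR adjusted p = 0.791). Ugt1a1, Slco1b2 and Slco1a1, of bilirubin conjugation and uptake, had too few reads to be tested.

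Of 16 genes of haem sensing or controlled by NRF2 or BACH1, 1 fell and 0 rose with edgeR, where 5 were lower and 1 higher at an unadjusted p under 0.05 (median log2 fold change -0.22). Over all genes tested 3.43% were called lower with edgeR, and at an unadjusted p under 0.05 11.8% were lower and 9.98% higher. The gene that fell was Srxn1, the antioxidant enzyme sulfiredoxin, at 14.6 ± 1.61 CPM in knockout and 30.9 ± 6.16 CPM in wild type (log2 fold change -1.08 ± 0.17, edgeR adjusted p = 0.00749). Limma-voom called 1 of the 16 lower and 0 higher, against 3.2% of all genes called lower. DESeq2 called 3 lower and 1 higher, against 6.51% of all genes called lower and 617 of 16226 called higher. Mafk, a small partner of NRF2 and BACH1, averaged 20.5 ± 2.26 CPM in knockout and 32.6 ± 6.97 CPM in wild type (edgeR adjusted p = 0.0509, but 0.0207 without WT2 and 0.0497 with RLE scaling). Eif2ak1, the haem-regulated kinase of red cell precursors, averaged 110 ± 22.2 CPM in knockout and 185 ± 44.6 CPM in wild type (edgeR adjusted p = 0.0534), and passed without WT2 (0.0238) or KO3 (0.0389). Slc7a11, the cystine carrier, was at 1.77 ± 0.309 CPM in knockout and 0.777 ± 0.384 CPM in wild type (edgeR adjusted p = 0.0884, but 0.0441 without WT3). The count of lower genes was 3 without WT2 and 2 without KO3.

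Of the 9 haem synthesis enzymes 6 fell with edgeR, against 3.43% of all genes tested, with a median log2 fold change of -0.87. Alas2, the first and rate-limiting erythroid enzyme, averaged 186 ± 27.5 CPM in knockout and 639 ± 151 CPM in wild type, a log2 fold change of -1.78 ± 0.19 (edgeR adjusted p = 0.00227). Alad and Urod, later enzymes of the pathway, had log2 fold changes of -0.87 and -0.93 (edgeR adjusted p = 0.00595 and 0.00676). The call of Urod ended without KO5 (edgeR adjusted p = 0.0514). The count of enzymes called lower was 8 without WT2, 6 without KO3, 5 without WT1 or WT4 and 4 without WT3. It was 3 without KO4 and 2 without KO5, and 8 with DESeq2, which called 6.51% of all genes lower.

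**Figure D4:**
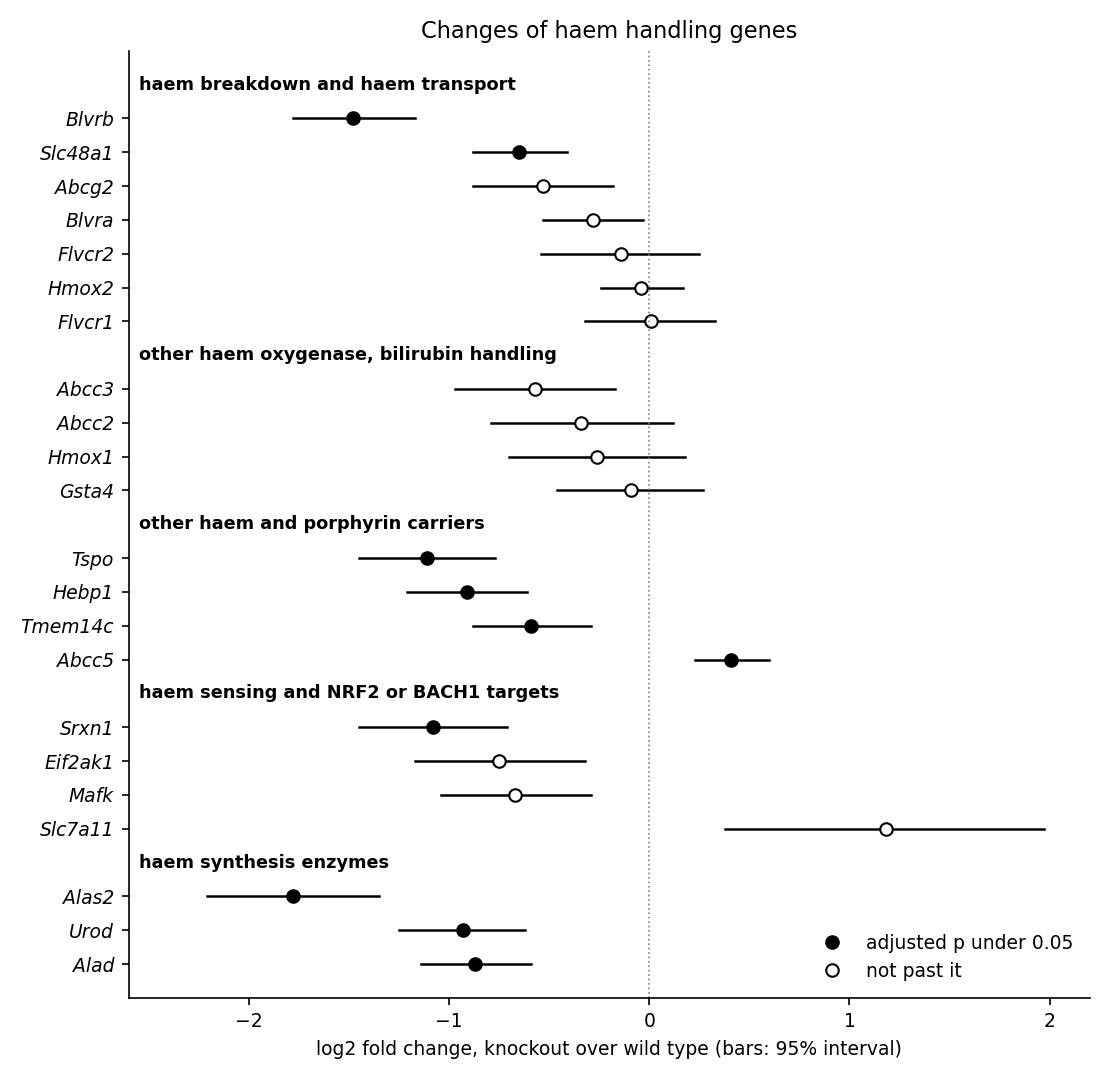
Log2 fold change, knockout over wild type, with its 95% interval (x axis) for the 5 members with Flvcr1 and Flvcr2 and for up to 4 genes with the smallest p of each other list, filled where the edgeR adjusted p was under 0.05. Blvrb at -1.48 lies between Alas2 at -1.78 and Tspo at -1.11, and Abcc5 at 0.41 is the filled point to the right of 0.

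The genes whose pattern over the 7 libraries lay nearest to a member's were found by the root mean square difference of centred log2 CPM among 10774 genes of at least 5 CPM. Nearest to Blvrb were Smox, spermine oxidase (0.138), and Ppbp, a platelet chemokine and one of the megakaryocyte markers (0.147), with log2 fold changes of -1.28 and -1.55. Nearest to Slc48a1 were Tlcd1 (0.0476) and Cish (0.0556), and nearest to Abcg2 were Tifa (0.0413) and Rnf139 (0.0430). Blvra lay nearest to Psma2 (0.0365) and Mrpl22 (0.0411), and Hmox2 to Hsd17b4 (0.0221) and Dtnbp1 (0.0247). Flvcr1 lay nearest to Dus4l (0.0311) and Dbf4 (0.0421), and Flvcr2 to Vps13d (0.0365) and Dnajc16 (0.0432). Between listed genes the nearest pair was Abcg2 and Slc48a1 (0.178), and Blvrb stood at 0.445 or more from every other listed gene. These distances include the difference between groups.

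Because Pcbp2 binds C-rich RNA, the C content of the members' longest protein-coding transcripts was read as well. C made up 29.2% of the Blvrb transcript and 29.3% of that of Slc48a1, the called members, against 25.3% for Hmox2, 22.8% for Blvra and 19.7% for Abcg2 and a median of 24.7% over 14795 tested genes with a protein-coding transcript. Of these genes, 14.0% had a higher C content than Blvrb and 13.6% a higher one than Slc48a1. Outside the members, C made up 28.0% of the Hmox1 transcript, 25.8% for Flvcr2 and 22.2% for Flvcr1, none of which was called. Blvrb held 3 runs of at least 5 C, Blvra 2 and Hmox2, Abcg2 and Slc48a1 1 each, and 82.3% of the genes held at least 1. Flvcr1 held 4 such runs and Flvcr2 and Hmox1 2 each, and the longest run, of 14 C, was in Flvcr2. Since the transcripts differ in length, the runs were also read per kilobase, with a median of 0.724 over the genes. Blvrb had 2.92, Blvra 1.72, Hmox2 0.578, Slc48a1 0.394 and Abcg2 0.175 per kilobase. Outside the members, Hmox1 had 1.27, Flvcr1 0.99 and Flvcr2 0.582. C content was not tested against the fold changes, and binding was not measured.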

How the data were processed

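Per the labels' protocols, Trizol was used on fetal liver and libraries were TruSeq stranded mRNA. Per the submitters' processing notes, cutadapt 1.4.2, TopHat2, HTSeq, DESeq2 and DESeq were used with build mm10; settings, annotation release and use of strand were not given in the sources used here. Files from the authors, as deposited, hold raw read counts per gene. Their deposited table holds a mean normalized count (a signal over all samples), a log2 fold change with its SE, a Wald score and p-values; its sign was checked on the counts and runs knockout over wild type.

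Counts were analysed with edgeR 4.0.16 in R 4.3.3: filterByExpr (16226 genes kept), TMM, and a quasi-likelihood fit with group as its term over 7 libraries, with calls at 0.05 after Benjamini-Hochberg adjustment over all genes. CPM are TMM scaled, and 3 reads, the most a count of 0 allows, are 0.0662 to 0.102 CPM, for counting error only. SEs and 95% intervals of log2 fold changes come from the fit. The fit was tested on simulated data. Reads that HTSeq assigned to no feature (4.89 to 7.61% of the reads in the files) or not uniquely (11.3 to 19.6%) stayed out of library sizes. RPKM use all annotated exons of GENCODE M21, which is on the same build. Alternatives were total-count and RLE scaling, a fit without globin genes, no filter, at least 5 CPM in 3 libraries, limma-voom (3.58.1), DESeq2 (1.42.0), a replicate block and each library left out. Lengths from the longest transcript were an alternative added after seeing the data. Named genes were the members, Pcbp2, Hmox1, up to 4 genes per list with the smallest p and, per member, the 2 nearest patterns; 1 gene that this rule names is not reported here. The members and lists were chosen with earlier results of these data known.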

Additional observations from a re-analysis of the deposited data

Results flagged for a closer look

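In wild type, 1 library stood far from the other 3 for 2 of the 24 genes looked at, by Dixon's test at the 95% level, where chance marks about 1 in 20 groups. Pcbp2 had 165 CPM in WT1, against 329, 347 and 338 CPM in the others. Urod, a haem synthesis enzyme, had 221 CPM in WT2, against 328, 322 and 317 CPM in WT1, WT3 and WT4. No member was so marked.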

How the results depend on the processing

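Blvrb kept its direction and its call in all 15 alternatives (log2 fold change -1.60 to -1.35) and Slc48a1 in 14 of 15 (-0.71 to -0.52). Abcg2 stayed lower (-0.66 to -0.40) and passed in 4 of 15, and Blvra stayed lower (-0.37 to -0.16) and passed in 0 of 15. The sign of genes near 0 turned. Hmox2 was at 0.08 with total-count scaling. Flvcr1 was at 0.00 with no filter, -0.06 with the replicate block, and between -0.08 and 0.10 with 1 library left out. Gsta4 was at 0.03 with total-count scaling, 0.02 with the replicate block, and between -0.19 and 0.05 with 1 library left out. None of these passed, and the cause was not tested.

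With total-count scaling the median over all genes was 0.14 on the log2 scale, against 0.01 with TMM, and the fit gave 651 higher and 393 lower genes. DESeq2 called 617 higher and 1057 lower. Of the 49 genes tested in the other haem handling lists, 10 fell and 1 rose with edgeR, against 18 and 2 with DESeq2. Among all genes tested 3.43% were called lower and 1.59% higher with edgeR, and 6.51% were called lower with DESeq2. With 1 library left out, between 116 and 753 of all genes were lower and between 24 and 418 higher, between 1 and 3 members were lower, and in the other lists between 4 and 17 genes were lower and between 0 and 1 higher. The cause was not tested.

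Replicate numbers 3 and 4 occur in both groups, but the labels do not say that they mark a pairing. Libraries of the same number deviated together (correlation of deviations 0.319 for number 3 and 0.258 for number 4). Pairs of unlike number ran from -0.329 (KO5 with WT3) to 0.153 (KO5 with WT1). The deviations are from group means, so these correlations are tied to each other, and they were not tested. Since 2 numbers occur in both groups, a replicate block with the title number as a factor left 1 residual degree of freedom among the 7 libraries, and its comparison rests on KO3 with WT3 and KO4 with WT4. It gave 852 higher and 1204 lower genes, 3 members lower and 19 genes of the other lists lower. Abcg2 (edgeR adjusted p = 0.000852) and Hmox1 (log2 fold change -0.36, edgeR adjusted p = 0.0291) passed under the block. Of the 7 listed genes Flvcr2 had the fewest reads, 115 to 160 per knockout library and 111 to 168 per wild type library.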
